A study of Rattus norvegicus with 8 samples.

Results

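The distal tubule is where the kidney sets how much calcium and magnesium leaves in urine. Calcium crosses the cells of the late distal convoluted and connecting tubule in sequence: it enters through apical TRPV5 and TRPV6 channels, is carried by calbindins, and leaves through the basolateral pump PMCA1 and the sodium-calcium exchanger NCX1. Magnesium enters the distal convoluted tubule through TRPM6, a channel that epidermal growth factor stimulates, whereas in the thick ascending limb the calcium-sensing receptor restrains the passage of both ions between cells. The genes described here are Trpv5, Trpv6, Calb1, S100g, Atp2b1, Slc8a1, Casr, Trpm6, Egf and Umod. They were chosen as the genes that carry these steps, or that mark the segments concerned. Every probe set with 1 of these symbols as its only gene symbol was kept. Of the 10 genes, 9 were measured, by 13 of the 31042 probe sets tested; over the whole series 14217 genes could be named. Trpm6 had no probe set under its symbol and was not analysed here. Of the 9, 6 genes had 1 probe set and 3 had several.

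The kidneys came from female Sprague-Dawley rats that were 29 weeks old and had been on diet for 26 weeks. Si deplete rats took in 0.17 mg Si daily per kg body weight from low-Si feed and low-Si drinking water, and Si replete rats took in 4.1 mg Si daily per kg from the same feed with orthosilicic acid in the water. Each array held RNA of the left kidney of 1 rat, with 4 Si deplete and 4 Si replete arrays, made to find genes regulated by dietary Si. Values are log2 levels of probe sets computed by gcRMA, and each is an average over all cell types of the kidney, in which fewer cells of a type and less RNA per cell cannot be told apart. Differences are Si deplete minus Si replete on the log2 scale, tested by limma with Benjamini-Hochberg adjustment over all probe sets and a threshold of 0.1 for the adjusted p. Levels of different probe sets cannot be compared as amounts of RNA, and brighter or brightest refers to signal alone. A level under 4 is called dim, which 51.3% of all probe sets had as their mean.

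The first principal component, with 42.1% of the variance, placed Si deplete replicate 1 at 64.0, apart from the other Si deplete arrays at -1.94 to 19.2 and the Si replete arrays at -25.9 to -18.8. Genes of tubule injury, such as Havcr1, Lcn2 and Spp1, lay higher in Si deplete kidneys for 12 of 12 genes, although none passed (limma, smallest adjusted p = 0.12). With Storey's q-value in place of the adjusted p, 4 of the 12 were under 0.1, Spp1, Cd44, Havcr1 and Vim (q = 0.0859 to 0.0955). Over the whole series 172 of 31042 probe sets were under 0.1 by that q-value. The list itself was chosen with earlier results of these data known. At an unadjusted p under 0.05 there were 10 of 12, all higher, where 18.5% of all genes lay under it (10.5% higher). The mean level of that list was 9.90 to 11.21 in Si deplete kidneys, against 8.85 to 9.65 in Si replete kidneys, highest in Si deplete replicate 1. Its part in the differences below was not tested.

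None of the 13 probe sets passed, with adjusted p-values of 0.18 to 0.771 (limma). Of all probe sets 0.151% passed, 0.113% higher and 0.0387% lower. At an unadjusted p under 0.05 there were 4 of 13, where 14.9% of all probe sets lay under it (7.81% higher and 7.14% lower). They were the brighter Slc8a1 probe set, Calb1 and S100g, all with lower means in Si deplete kidneys, and the dim Trpv5 probe set, with a higher one. The groups did not overlap on 2 of 13 probe sets, Calb1 and the dim Trpv5 probe set, while 9.37% of all probe sets separated the groups (4.67% higher and 4.7% lower). Signs were negative for 11 of 13 probe sets, with a median log2 fold change of -0.11 against -0.01 over all probe sets. These signs are not independent, as 3 of the 11 are of Atp2b1 and 2 of Slc8a1. Without Si deplete replicate 1, Casr turned positive, at 0.063, and Egf and Umod lay at -0.022 and -0.0044.

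**Figure D1:**
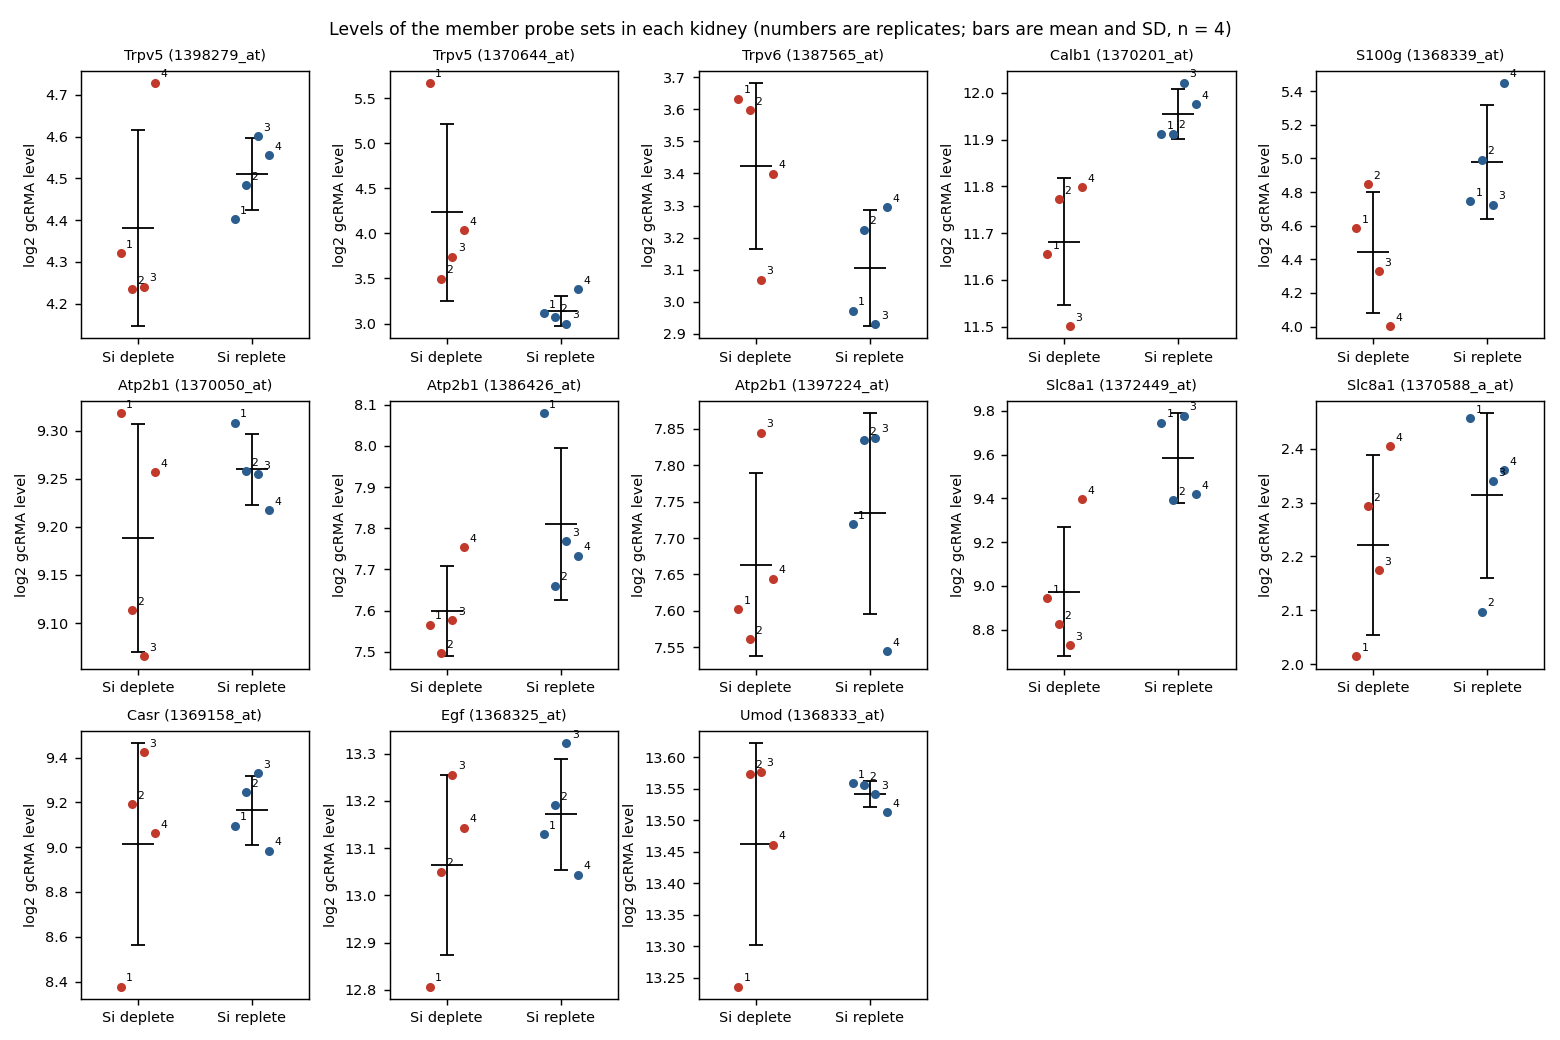
Log2 gcRMA level of each of the 13 probe sets (y axes, each with its own range) in each kidney, with Si deplete on the left; numbered points are replicates, and bars give mean and SD (n = 4). Calb1 lies at 11.50 to 11.80 in Si deplete kidneys, against 11.91 to 12.02 in Si replete kidneys, and Si deplete replicate 1 is the lowest array for Casr, Egf and Umod.

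Apical entry was represented by the RNA of Trpv5 and Trpv6. The 2 genes neighbour each other on the same rat chromosome, with no coding gene between them in RefSeq annotation of GRCr8. Trpv5, which encodes the channel that sets the rate of active calcium reabsorption in the kidney, had 2 probe sets, and their differences by diet were of opposite sign.

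On 1398279_at, the brighter on average, the levels of Trpv5 were 4.32, 4.23, 4.24 and 4.73 in the Si deplete kidneys, in the order of their replicate numbers, and 4.40, 4.48, 4.60 and 4.56 in the Si replete kidneys. Of the Si deplete kidneys, 3 lay below every Si replete kidney and replicate 4 above all of them. By the means, the log2 fold change was -0.13 (standard error 0.12, limma, adjusted p = 0.646), and -0.25 without Si deplete replicate 4 (adjusted p = 0.213).

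On 1370644_at, the levels of Trpv5 were 5.67, 3.50, 3.74 and 4.04 in Si deplete kidneys and 3.11, 3.07, 3.00 and 3.38 in Si replete kidneys. The lowest Si deplete kidney lay above the highest Si replete one here, but replicate 1 stood far above the other Si deplete kidneys, and all Si replete kidneys were dim. This gave a log2 fold change of 1.10 (standard error 0.41, limma, adjusted p = 0.275), and 0.62 without Si deplete replicate 1 (adjusted p = 0.193).

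Trpv6, the related channel that is best known from calcium absorption in the intestine, was dim in all 8 kidneys on its single probe set. Its levels were 3.63, 3.60, 3.07 and 3.40 in Si deplete kidneys and 2.97, 3.22, 2.93 and 3.30 in Si replete kidneys, with overlap through Si deplete replicate 3. Trpv6 thus differed by 0.32 (standard error 0.14, limma, adjusted p = 0.34), with a 95% interval of -0.0031 to 0.64.

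The calbindins, which carry calcium from the apical to the basolateral side and keep its free concentration low, both had lower means in Si deplete kidneys. Calb1 encodes calbindin-D28k, the form that marks the late distal convoluted and connecting tubule. Its levels were 11.65, 11.77, 11.50 and 11.80 in Si deplete kidneys and 11.91, 11.91, 12.02 and 11.98 in Si replete kidneys. The highest Si deplete kidney thus lay below the lowest Si replete kidney. Its mean level was 11.68 ± 0.14 in Si deplete and 11.96 ± 0.05 in Si replete kidneys (SD, n = 4 each), so that the linear level was 82.7% of that in Si replete kidneys. Calb1 thus differed by -0.27 (standard error 0.09, limma, adjusted p = 0.226), without passing, and the 95% interval was -0.47 to -0.08.

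S100g, which encodes calbindin-D9k, had levels of 4.59, 4.85, 4.33 and 4.00 in Si deplete kidneys and 4.74, 4.99, 4.72 and 5.45 in Si replete kidneys. The groups overlapped only through Si deplete replicate 2, which lay above Si replete replicates 1 and 3. S100g thus differed by -0.54 (standard error 0.21, limma, adjusted p = 0.29). It was -0.38 without Si replete replicate 4, the highest kidney, and -0.39 without Si deplete replicate 4, the lowest.

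**Figure D2:**
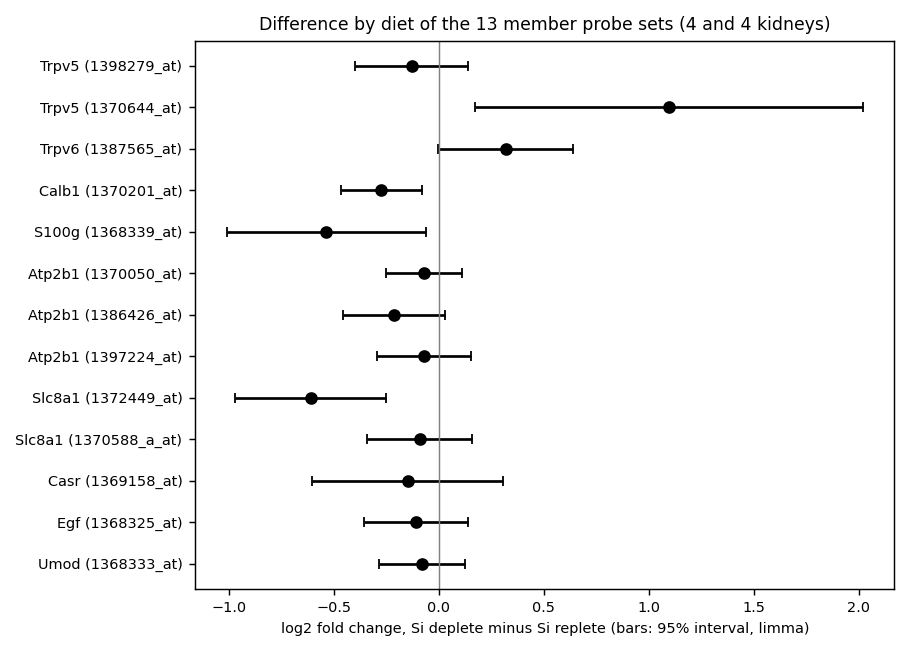
Log2 fold change (x axis, Si deplete minus Si replete) of each of the 13 probe sets from 4 and 4 kidneys; points are limma estimates and bars their 95% intervals, not adjusted for the number of probe sets. The intervals of the brighter Slc8a1 probe set (-0.97 to -0.25), Calb1, S100g and the dim Trpv5 probe set (0.17 to 2.02) leave out 0, although no probe set passed after adjustment.

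Basolateral exit was represented by the RNA of Atp2b1 and Slc8a1. Atp2b1, which encodes the plasma membrane calcium pump PMCA1, a form present in most cells, had negative differences on all 3 of its probe sets, of -0.07 to -0.21. On the brightest, 1370050_at, the levels were 9.32, 9.11, 9.07 and 9.26 in Si deplete kidneys and 9.31, 9.26, 9.25 and 9.22 in Si replete kidneys. There the difference was -0.07 (standard error 0.08), with a 95% interval of -0.25 to 0.11. The other probe sets gave -0.21 (1386426_at) and -0.07 (1397224_at), and the adjusted p-values of the 3 were 0.388 to 0.771 (limma).

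Slc8a1 encodes the exchanger NCX1, which brings sodium in as it moves calcium out and is strongly expressed in heart as well. A heat map in the study shows this carrier among genes picked for their difference on these same arrays, so its difference here is not independent evidence. On the brighter probe set, 1372449_at, the levels of Slc8a1 were 8.94, 8.83, 8.73 and 9.40 in Si deplete kidneys and 9.75, 9.39, 9.78 and 9.42 in Si replete kidneys. Si deplete replicates 1 to 3 lay below every Si replete kidney, and replicate 4 was level with Si replete replicates 2 and 4, at a value just above the lowest of them. The mean was 8.97 ± 0.30 in Si deplete and 9.58 ± 0.21 in Si replete kidneys (SD, n = 4 each). Its log2 fold change of -0.61 (standard error 0.16), or 65.5% of the linear level in Si replete kidneys, had the smallest p of the 13 probe sets but did not pass (limma, adjusted p = 0.18).

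On the other probe set, 1370588_a_at, Slc8a1 was dim, at 2.01, 2.29, 2.17 and 2.40 in Si deplete kidneys and 2.46, 2.10, 2.34 and 2.36 in Si replete kidneys. The groups overlapped throughout. They gave a log2 fold change of -0.09 (standard error 0.11, limma, adjusted p = 0.733). RefSeq lists 30 transcript models for rat Slc8a1, 9 of them curated, and 2 for Trpv5. Which of the models each probe set detects was not analysed here.

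The probe sets of Slc8a1 were compared by their gap within each array, which removes any factor common to both. The brighter minus the dim probe set was 6.93, 6.53, 6.55 and 6.99 in Si deplete kidneys and 7.29, 7.29, 7.44 and 7.06 in Si replete kidneys. Every Si deplete kidney had a smaller gap than every Si replete kidney. The gap differed by -0.52 (standard error 0.14, exact permutation test, 2-sided p = 0.0286, the smallest that 4 against 4 allow). This p was 0.0571 without Si deplete replicate 2 or 3 or without Si replete replicate 1, 2 or 3. The dim probe set had a mean level of 2.27 over the 8 arrays, where a lower level has little room to show, so the gap largely repeats the difference of the brighter probe set and does not show that the probe sets differ in response.

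The gaps of the other genes with several probe sets were computed after their values were seen and are given as a description. For Trpv5, the gap between 1398279_at and 1370644_at was -1.35, 0.74, 0.50 and 0.69 in Si deplete kidneys and 1.29, 1.42, 1.60 and 1.17 in Si replete kidneys, without overlap. It differed by -1.23, and by -0.73 without Si deplete replicate 1, which alone had a negative gap. One of the probe sets was dim in every Si replete kidney, as given above. For Atp2b1 the gap between the brightest probe set and the mean of the others differed by 0.07.

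**Figure D3:**
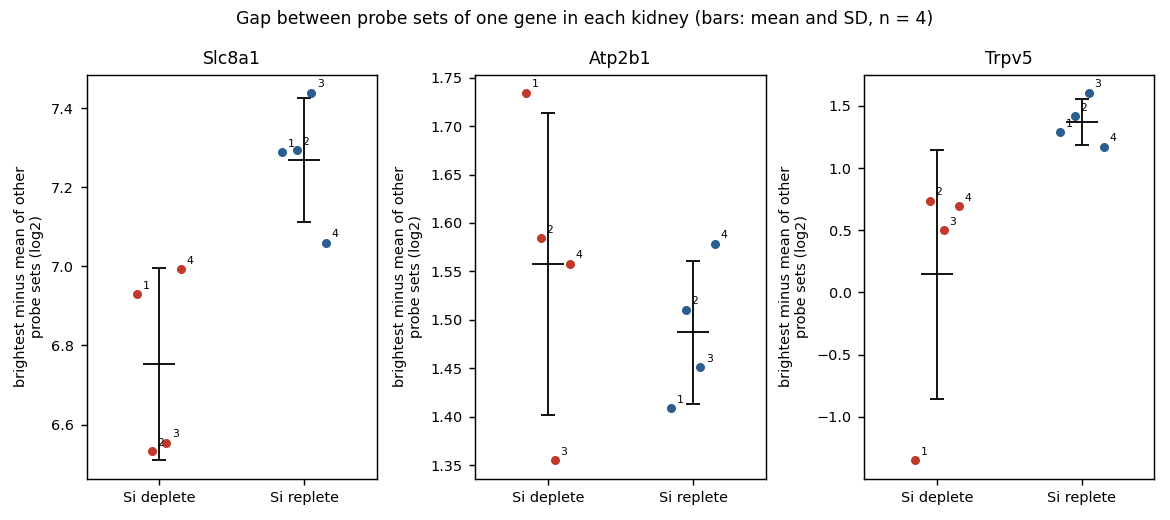
Level of the brightest probe set minus the mean of the gene's other probe sets (y axes, log2) in each kidney, for Slc8a1, Atp2b1 and Trpv5; numbered points are replicates, and bars give mean and SD (n = 4). The groups do not overlap for Slc8a1 (6.53 to 6.99 in Si deplete, 7.06 to 7.44 in Si replete kidneys) or Trpv5, and they overlap for Atp2b1.

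Casr, Egf and Umod, measured for the thick ascending limb and for magnesium control, had negative signs, and the groups overlapped on each of them. Casr encodes the calcium-sensing receptor, a G protein-coupled receptor of the basolateral membrane of that segment. Its levels were 8.38, 9.19, 9.42 and 9.06 in Si deplete kidneys and 9.10, 9.25, 9.33 and 8.98 in Si replete kidneys. Si deplete replicate 1 was the lowest of the 8 and the other Si deplete kidneys lay among or above the Si replete ones. For Casr the log2 fold change was -0.15 (standard error 0.20, limma, adjusted p = 0.766), and it was 0.063 without Si deplete replicate 1.

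Egf encodes the precursor of epidermal growth factor, which the distal tubule and thick ascending limb make in large amounts. Its levels were 12.81, 13.05, 13.26 and 13.14 in Si deplete kidneys and 13.13, 13.19, 13.32 and 13.04 in Si replete kidneys, with overlap, and the log2 fold change was -0.11 (standard error 0.11, limma, adjusted p = 0.681). Umod encodes uromodulin, the major protein of normal urine, which is made in the thick ascending limb. Its levels were 13.24, 13.57, 13.58 and 13.46 in Si deplete kidneys, against a narrow 13.56, 13.56, 13.54 and 13.51 in Si replete kidneys. The log2 fold change of Umod was -0.08 (standard error 0.09, limma, adjusted p = 0.716), with a 95% interval of -0.28 to 0.12. For both genes Si deplete replicate 1 was again the lowest kidney, and without it the differences were -0.02 for Egf and -0.0044 for Umod.

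Beside these genes, markers of the segments had small median differences. Of 8 measured markers of the thick ascending limb none passed, and their median log2 fold change was 0.02 (0.00 over all 14217 genes), while the mean was 0.18 and 0.11 without Si deplete replicate 1. At an unadjusted p under 0.05 there were 2 of 8, both higher, against 18.5% of all genes (10.5% higher). They were Cldn19, described below, and Ptger3, a prostaglandin E2 receptor, which lay at 10.26 to 11.12 in Si deplete kidneys, against 9.72 to 10.47 in Si replete kidneys, with overlap and a log2 fold change of 0.59 (standard error 0.22, limma, adjusted p = 0.28). Slc12a1, the furosemide-sensitive cotransporter that defines the segment, differed by -0.05. Of 10 markers of the distal convoluted and connecting tubule none passed either (limma, smallest adjusted p = 0.175), while 9 of 10 had a negative sign and the median was -0.10. The groups did not overlap for 3 of 10, all lower, against 11.9% of all genes (5.49% lower), and the same 3 had an unadjusted p under 0.05, against 18.5% of all genes (7.95% lower). Slc12a3, the thiazide-sensitive cotransporter that defines the distal convoluted tubule, differed by -0.03 (standard error 0.12) and was present at 10.44 to 10.83 in Si deplete kidneys, against 10.46 to 10.89 in Si replete kidneys. In contrast Klk1, tissue kallikrein of the connecting tubule, lay at 12.19 to 12.59 in Si deplete kidneys, against 12.66 to 12.93 in Si replete kidneys, without overlap, with a log2 fold change of -0.44 (standard error 0.11, limma, adjusted p = 0.175). Stk39 (-0.32), a kinase that activates the thiazide-sensitive cotransporter, and Emx1 (-0.47, and -0.29 without Si deplete replicate 1) did not overlap either. Of these 10 markers 3, Pvalb, Kcnj10 and Klhl3, were dim. The mean level of the list was 7.96 to 8.30 in Si deplete kidneys, against 8.27 to 8.41 in Si replete kidneys, lowest in Si deplete replicate 1. Its mean difference was -0.17, and -0.10 without that kidney. Whether fewer distal cells take part in the differences of Calb1 and Slc8a1 was not tested.

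**Figure D4:**
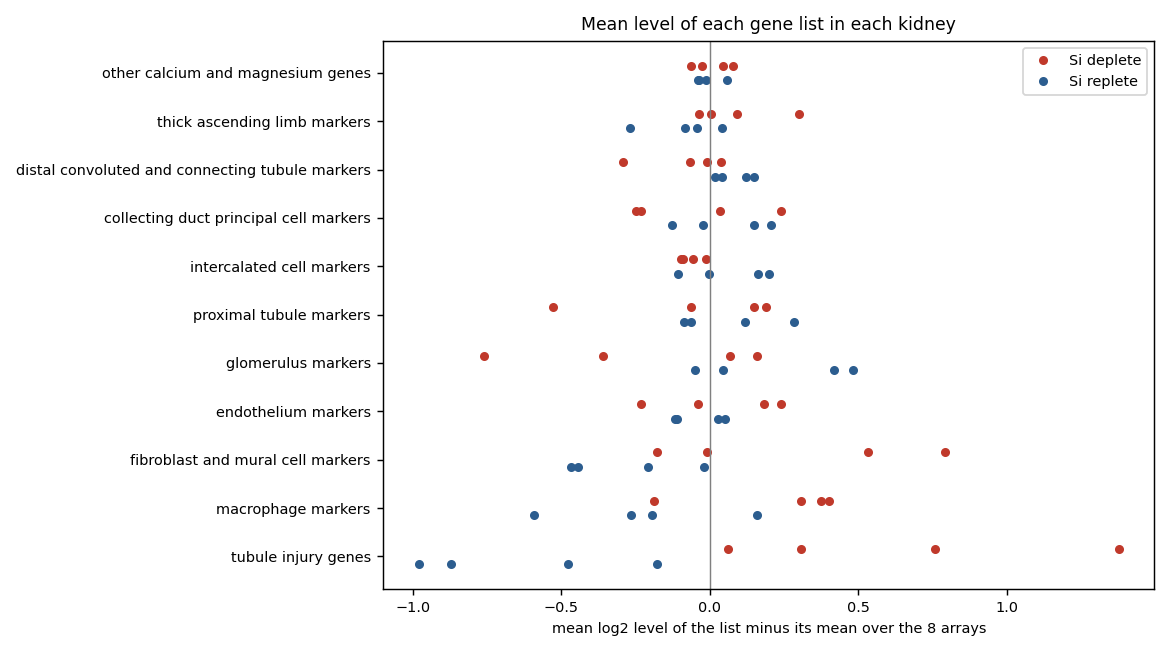
Mean log2 level of each gene list in each kidney minus the mean of that list over the 8 arrays (x axis), by diet; each point is 1 array. Lists of the tubule segments overlap between diets, whereas the tubule injury list is higher in every Si deplete kidney.

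Markers of other parts of the kidney were also measured, and none of their genes passed (limma, smallest adjusted p = 0.166). The median log2 fold change was -0.09 for principal cells, -0.14 for intercalated cells, -0.14 for the proximal tubule, -0.49 for the glomerulus, 0.04 for endothelium, 0.22 for fibroblasts and mural cells and 0.52 for macrophages. Without Si deplete replicate 1 the mean difference of the proximal tubule list went from -0.13 to 0.03. Those of principal cells (-0.10 to -0.13), intercalated cells (-0.13 to -0.14) and the glomerulus (-0.45 to -0.40) stayed negative. The mean log2 fold change of the fibroblast and mural cell list was 0.57, above its median, and 0.67 without Si deplete replicate 1, with array means of 7.30 to 8.27 in Si deplete kidneys, against 7.01 to 7.46 in Si replete kidneys. Its largest differences were in the fibrillar collagens Col1a1 (1.80, limma, adjusted p = 0.166), without overlap, and Col3a1 (1.48, adjusted p = 0.189). Array means of the macrophage list were 5.93 to 6.52 in Si deplete kidneys, against 5.52 to 6.28 in Si replete kidneys, and those of the glomerulus list were 8.13 to 9.05 in Si deplete kidneys, against 8.84 to 9.37 in Si replete kidneys.

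Other genes of calcium and magnesium handling were taken from a list of 41, of which 36 were measured. None passed in either direction (limma, smallest adjusted p = 0.226; 0.204% of all genes passed, 0.169% higher and 0.0352% lower), and 7 of 36 had an unadjusted p under 0.05, against 18.5% of all genes. Of these 7, 6 were higher and 1 was lower, where the shares of all genes were 10.5% and 7.95%. The median log2 fold change was -0.03 (0.00 over all genes), and 5 genes separated the groups, 3 higher and 2 lower, against 11.9% of all genes (6.45% higher and 5.49% lower). The 3 higher were Tgm2, Cldn19 and Anxa2. The 2 lower, Atp2b4 and Slc8a3, were both dim, with mean levels of 1.93 and 2.05.

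The largest positive difference was in Cldn19, a claudin that with claudin-16 lets calcium and magnesium pass between cells of the thick ascending limb. Its levels were 11.06, 9.65, 9.71 and 9.94 in Si deplete kidneys and 9.61, 9.01, 9.18 and 8.71 in Si replete kidneys. The groups did not overlap, although Si replete replicate 1 lay just under the lowest Si deplete kidney, and the log2 fold change was 0.96 (standard error 0.31, limma, adjusted p = 0.232), and 0.64 without Si deplete replicate 1. Its partner Cldn16 differed by 0.03 (standard error 0.08), with a 95% interval of -0.16 to 0.22. The interval of Cldn19 was 0.25 to 1.67, and whether the 2 genes differ in response was not tested.

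Anxa2 and S100a10 encode the parts of a complex that brings TRPV5 and TRPV6 to the plasma membrane. The log2 fold change was 0.60 (standard error 0.20) for Anxa2 and 0.50 (standard error 0.20) for S100a10, with adjusted p-values of 0.245 and 0.308 from limma. Both genes had their highest level in Si deplete replicate 1, at 12.24 for Anxa2 and 12.56 for S100a10. Without that kidney the log2 fold change was 0.37 for Anxa2 and 0.28 for S100a10. Tgm2, a transglutaminase that cross-links proteins, had a difference of 0.56 (standard error 0.18), and 0.40 without Si deplete replicate 1. Its lowest Si deplete level, 10.99, lay just above its highest Si replete level, 10.98. Slc8b1, the mitochondrial sodium-calcium exchanger, had a difference of 0.35 (standard error 0.12), and 0.38 without Si deplete replicate 1.

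The largest negative difference was in Stc2, which encodes stanniocalcin-2, a secreted glycoprotein named after the calcium-lowering hormone of fish. Its levels were 6.36, 7.64, 7.35 and 9.41 in Si deplete kidneys and 9.42, 9.15, 9.75 and 8.45 in Si replete kidneys. Si deplete replicates 1 to 3 lay below all Si replete kidneys and replicate 4 among them, with a log2 fold change of -1.50 (standard error 0.56, limma, adjusted p = 0.278). The difference of Stc2 was -1.06 without Si deplete replicate 1 and -2.08 without Si deplete replicate 4. Next in p were Atp2b4 (-0.22), a plasma membrane calcium pump, Slc8a3 (-0.17), a relative of Slc8a1, and Ryr2 (-0.21), a calcium release channel, all of them dim, and then Cnnm2 (-0.24), a basolateral protein of the distal tubule needed for magnesium balance. Without Si deplete replicate 1 the difference was -0.12 for Cnnm2 and -0.14 for Ryr2.

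Kl, Vdr and Pth1r, genes of hormone signalling read over the whole kidney, had intervals that include 0. The log2 fold change was -0.33 (95% interval -0.95 to 0.28) for Kl, which encodes klotho, -0.13 (-0.60 to 0.34) for Vdr, the vitamin D receptor, and -0.16 (-0.51 to 0.19) for Pth1r, the parathyroid hormone receptor. Without Si deplete replicate 1 these were -0.062 for Kl, -0.057 for Vdr and -0.010 for Pth1r. These 3 were named after their values were seen, and so were Cldn16, Slc12a1, Slc12a3, Pvalb, Kcnj10, Klhl3, Lcn2 and Vim. The intervals leave room for moderate differences in either direction.

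**Figure D5:**
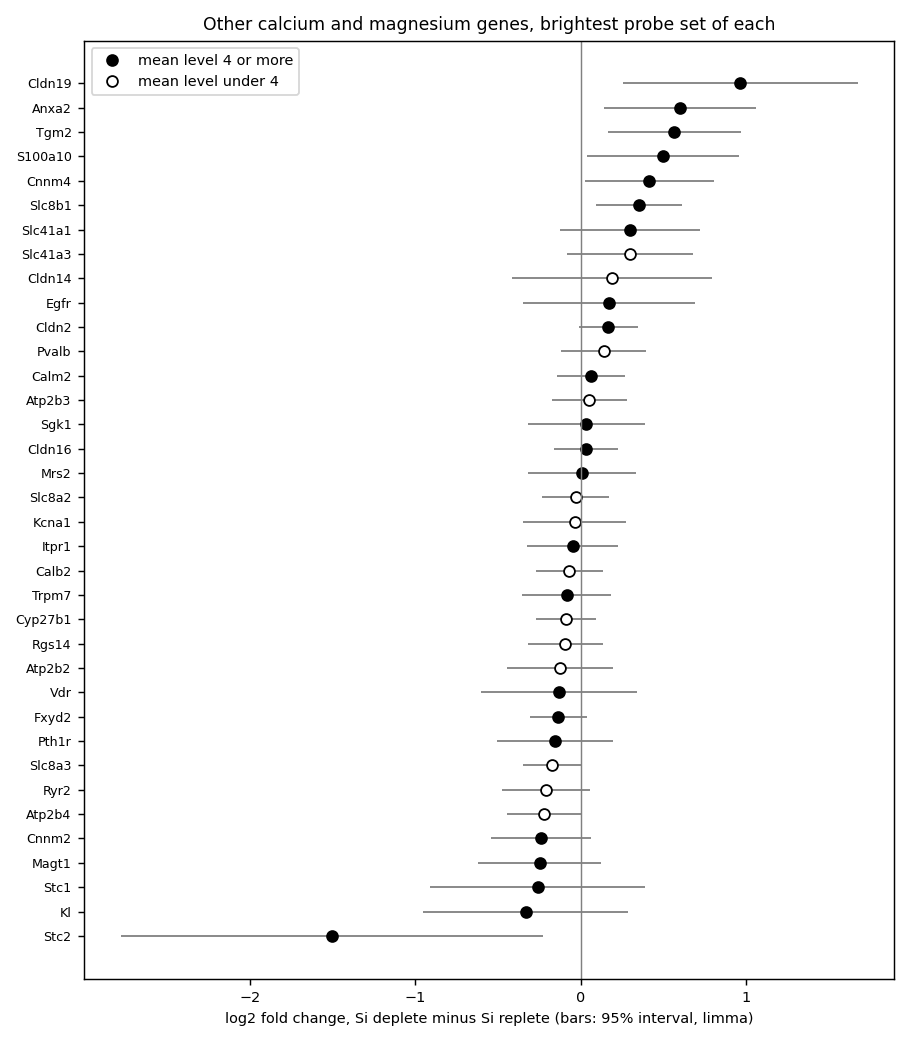
Log2 fold change (x axis, Si deplete minus Si replete) of the 36 measured genes of the wider calcium and magnesium list, 1 probe set per gene from 4 and 4 kidneys; bars are 95% intervals from limma, and open points are dim. Cldn19 is at the upper end at 0.96 and Stc2 at the lower end at -1.50, and no gene passed after adjustment.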

How the data were processed

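Total RNA of 8 rat left kidneys was measured on Affymetrix Rat Genome arrays. The deposited values are log2 levels per probe set, which the authors made by gcRMA with summarization by m-estimators (GCRMA 2.36.0 per the labels). The sources used here do not state filters before deposit. Probe intensities were not analysed, so array quality was not checked from them. The number of arrays limits the precision. Of 31099 probe sets, 57 controls were left out. Symbols are those of the platform annotation (20826 probe sets with 1 symbol, 436 with several, 9780 with none), and the Entrez IDs of 9 of 9 measured genes matched RefSeq of GRCr8 with the same symbol.

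Groups were compared in R 4.3.3 with limma 3.58.1 (lmFit, eBayes), without a filter on levels. A gene of the wider lists was read on its brightest probe set. The gap between the probe sets of Slc8a1 was compared by an exact permutation test over 70 arrangements. The members and lists were chosen with earlier results of these data known. Named genes were all members, of the wider list the 5 with the smallest p in each direction, and up to 3 of each segment list; exceptions are stated. Each replicate is 1 rat. The paper states that 1 rat of each group was killed and processed per day. The sample titles do not give the day, so rats of the same day could not be matched. Same-numbered arrays of both diets had deviations from their group means that correlated at 0.088, 0.09, 0.079 and -0.088, and the numbers were not taken to pair the rats. The scripts were tested on simulated data. Alternatives were array weights, eBayes with a trend or robust prior, a filter on dim probe sets, median and quantile scaling, a replicate block, leaving out single arrays, averaging the probe sets of a gene, Storey's q-value and a 0.05 threshold.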

Additional observations from a re-analysis of the deposited data

Results flagged for a closer look

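In groups of 4 kidneys, 84 sets of levels or gaps of the genes described were searched for a kidney far from the others, and 6 stood out by Dixon's criterion (critical value 0.829), where chance gives about 4.2. In Tgm2, Si deplete replicate 1 had a level of 11.69, against 10.99 to 11.07 in the other Si deplete kidneys, and Si replete replicate 4 had 10.98, against 10.47 to 10.52 in the other Si replete kidneys. Si deplete replicate 1 also stood apart from the other Si deplete kidneys in Kl, with a level of 7.02 below the next at 8.05, in Emx1, with 5.31 below the next at 5.94, and in the gap between the probe sets of Trpv5, with -1.35 below the next at 0.50. In Slc8a3, which is dim, Si replete replicate 3 had a level of 2.29, against 2.07 to 2.11 in the other Si replete kidneys.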

How the results depend on the processing

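No probe set of the 9 measured genes and no gene of the wider calcium and magnesium list passed under any alternative run. Alternatives for the gaps of Trpv5 and Atp2b1 and for 26 named genes of the lists were added after seeing the data. Of 192 values of single probe sets under alternatives, 191 kept their direction. The exception was Casr, with a log2 fold change of 0.063 without Si deplete replicate 1 and from -0.29 to 0.063 over single arrays left out. A trend or robust prior, the filter on dim probe sets and the replicate block leave log2 fold changes as they were. Only the other alternatives could thus turn a sign. Read as the mean of its probe sets, Trpv5 was at 0.48, opposite to its brighter probe set, as the dim probe set moves that mean. The adjusted p of Slc8a1 on its brighter probe set ranged from 0.136 to 0.366, and that of Calb1 from 0.169 to 0.413. The gap between the probe sets of Slc8a1 differed by -0.60 to -0.44 with single arrays left out. With the replicate block it was -0.52 (exact permutation of signs over 4 pairs, p = 0.125, the smallest that design allows), and the block changed no limma call of the 13 probe sets or of the wider list. Of 387 values of the 26 named genes, 377 kept their direction. The alternatives that leave log2 fold changes as they were could not turn a sign here either. Many of these genes were also named for a small p in these data. Slc12a1 ranged from -0.13 to 0.012, Slc12a3 from -0.11 to 0.049, Cldn16 from -0.026 to 0.071 and Vdr from -0.32 to 0.015 with single arrays left out. With quantile normalization Slc12a1 was at 0.0033 and Slc12a3 at 0.0092, and with array medians subtracted Cldn16 was at -0.028. In 11 of the 387 a gene passed, each time Spp1, Cd44, Havcr1, Vim or Col1a1. Over all probe sets the 47 that passed became 77 without dim probe sets, 104 with the replicate block, 172 by Storey's q-value and 0 with limma's adjusted p held to 0.05 (4638 had an unadjusted p below 0.05), and 0 to 302 with single arrays left out.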
